A study of Mus musculus with 8 samples.

Results

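C3H10T1/2 cells depleted of KDM4D and C3H10T1/2 cells depleted of NFIB were compared directly with each other at day 5 of adipogenic differentiation, without reference to the control cells. Each side was 1 RNA-seq library. The members of the comparison were all genes with an RPKM (the number of reads scaled to exon length in kilobases and to the size of the library) over 1 in at least 1 of the 2 libraries, which held for 10940 of the 41325 genes listed (26.5%). For each gene the ratio of shKDM4D to shNFIB cells was taken as the log2 of (RPKM + 0.1) in one over (RPKM + 0.1) in the other, so that a positive value means a higher level in shKDM4D cells and a negative value a higher level in shNFIB cells.

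C3H10T1/2 is a mouse mesenchymal stem cell line that can turn into fat cells. The series compared control cells (shControl) with 3 stable lines that carry an shRNA against *Kdm4d* (shKDM4D), *Nfib* (shNFIB) or *Mll1* (shMLL1), before induction (day 0) and 5 days after it, with 1 library per condition and 8 in all. Differentiation was induced in confluent cells of every line with the MDI mixture of insulin, dexamethasone and isobutylmethylxanthine, so both libraries compared here had received it. The knockdown cells were puromycin-resistant clones of cells transfected with the pLKO.1 vector. Which clone was sequenced is not given in the sources used here, so the target of the shRNA and the identity of the clone cannot be told apart in any difference between the lines.

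KDM4D is a histone demethylase that removes methyl groups from lysine 9 of histone H3, a mark of silent chromatin. NFIB is a DNA-binding transcription factor of the nuclear factor I family, and both proteins are studied here as partners in the switch to the fat cell program, which the nuclear receptor PPARγ and the factors C/EBPα and C/EBPβ drive. Among the pathways named here, type I interferon acts through a complex that includes STAT2 and IRF9 and binds the interferon-stimulated response element in the promoters of antiviral genes, and sterol shortage acts through SREBP2, which raises the genes of cholesterol synthesis and uptake.

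The depth, estimated from the RPKM values and exon lengths, was 21600000 mapped reads for the shKDM4D and 15800000 for the shNFIB library. On a gene with 1 kb of exons, 3 reads equalled an RPKM of 0.139 and 0.189, respectively. Across the 8 libraries the depth ranged from 15800000 to 38200000 mapped reads. Without replicates there is no estimate of the spread and no p-value. The 95% intervals given are exact Clopper-Pearson intervals of the read ratio on the log2 scale without the pseudocount, and they cover counting error only. Of the mesenchymal markers, 11 of 13 passed the RPKM limit, whereas *Thy1* was at 0.139 in shKDM4D and 0.0632 in shNFIB cells against 22.6 in shControl and 11.1 in shMLL1 cells, and *Nt5e* was under 0.02 in all 4 lines at day 5. None of the 9 blood and immune cell markers passed, and 6 of them, among them *Ptprc*, *Cd3e* and *Adgre1*, were at 0 in both libraries. One gene each passed of 6 endothelial (*Tek*), 7 epithelial (*Cdh1*) and 7 skeletal muscle markers (*Des*), with no RPKM over 1.24. Of the adipocyte markers, 6 of 10 passed, and they are described with the lipid genes.

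Most genes lay close together in the 2 lines. The ratio was within 1.5-fold for 8493 genes (77.6%), and its median was -0.09 with a 5th percentile of -0.98 and a 95th percentile of 0.83. More than 2-fold higher in shKDM4D cells were 384 genes (3.51% of all members), and 523 genes (4.78%) were more than 2-fold higher in shNFIB cells, which left 10033 genes in neither group. A difference over 8-fold was found for 44 genes in favour of shKDM4D cells and for 73 in favour of shNFIB cells. Over the RPKM limit in shKDM4D cells alone were 310 genes and in shNFIB cells alone 457. Such genes could differ only in favour of that library. The list counts below include such genes and are to be read beside the shares of 3.51% and 4.78%. The counting interval excluded equal expression for 379 of the 382 genes higher in shKDM4D cells that had one, and for 511 of 517 of those higher in shNFIB cells. It lay wholly beyond 2-fold for 262 and 330 of them. Of the genes with an RPKM between 1 and 5 in the higher library, 4.49% were past 2-fold in favour of shKDM4D and 6.91% in favour of shNFIB cells. The shares were 2.59% and 3.54% for an RPKM of 5 to 20, 3.48% and 3.81% for 20 to 100, and 4.13% and 3.10% for the 484 genes over 100.

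**Figure D1:**
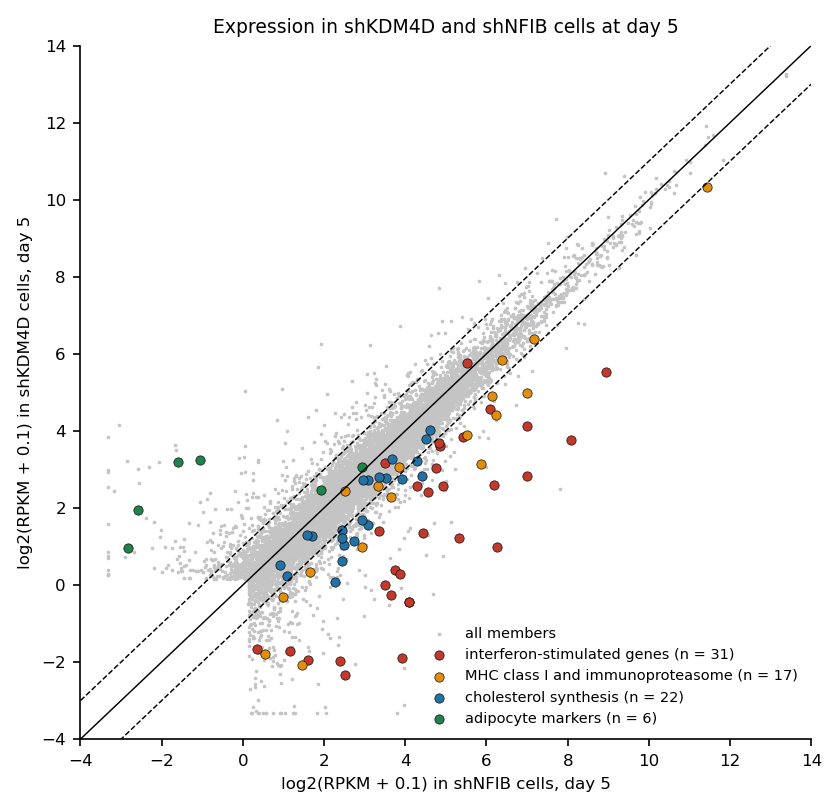
Each point is 1 gene at day 5, with log2(RPKM + 0.1) in shNFIB cells on the x axis and in shKDM4D cells on the y axis. The solid line marks equal expression and the dashed lines a 2-fold difference. The interferon-stimulated genes (29 of 31) and many MHC class I genes (12 of 17) and cholesterol genes (11 of 22) lie under the lower dashed line, and 4 of the 6 adipocyte markers lie above the upper one.

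The targeted genes were examined first. *Nfib* (GRCm38 chr4:82290173-82705750, protein coding) had an RPKM of 22.98 in shKDM4D cells and 3.38 in shNFIB cells, against 17.0 in shControl and 10.3 in shMLL1 cells. Its log2 ratio was 2.73 (95% interval 2.66 to 2.87), and 2.26 (2.19 to 2.43) at day 0. *Kdm4d* (chr9:14462548-14500482) was under the RPKM limit, with 4 reads in shKDM4D cells (RPKM 0.0647) and 7 in shNFIB cells (0.154). A difference in *Kdm4d* between the 2 lines was not detectable at this depth, as the interval ran from -3.48 to 0.72. The other members of the nuclear factor I family differed less than 2-fold, with log2 ratios of 0.78 for *Nfia*, 0.69 for *Nfix* and -0.05 for *Nfic*. Of the H3K9 enzymes and KDM4 demethylases, 11 of 12 passed the limit and 1 differed more than 2-fold, the H3K9 methyltransferase gene *Setdb2*, with an RPKM of 2.99 in shKDM4D and 6.18 in shNFIB cells (-1.02, interval -1.27 to -0.81). All 14 members of the list of the MLL1 complex and its partners lay between -0.52 and 0.39.

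Interferon-stimulated genes stood far apart. Of 34 genes on the list, 31 passed the RPKM limit, 29 were more than 2-fold higher in shNFIB cells and none was higher in shKDM4D cells. Their median log2 ratio was -3.35, beside -0.09 for all members. Some of them, such as *Zbp1*, *Usp18* and *Oasl2*, passed the limit through shNFIB cells alone. *Ifit1*, which encodes an inhibitor of viral RNA translation (chr19:34640871-34650009), had an RPKM of 13.5 in shKDM4D and 273 in shNFIB cells, whereas the shControl and shMLL1 cells of the same day were at 17.0 and 386. The log2 ratio was -4.32 (95% interval -4.44 to -4.23). *Isg15*, the ubiquitin-like modifier (chr4:156199424-156200818), was at 1.90 in shKDM4D and 76.6 in shNFIB cells, with 3.70 in shControl and 192 in shMLL1 cells (-5.26, interval -5.90 to -4.82). For both genes the shKDM4D library was the lowest of the 4 day 5 libraries, near shControl, and the shNFIB library was the second highest, under shMLL1.

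The same order of the 4 libraries (shKDM4D lowest, then shControl, shNFIB and shMLL1) was seen for the following effectors except *Ifit3b*, which was slightly lower in shControl than in shKDM4D cells. *Bst2*, which encodes tetherin, was at 6.97 in shKDM4D, 127 in shNFIB, 10.7 in shControl and 220 in shMLL1 cells (-4.17, interval -4.46 to -3.94). *Zbp1*, a sensor of Z-form nucleic acids, was at 0.170, 15.1, 0.689 and 57.3 in the same 4 lines (-5.82, interval -7.39 to -5.69, from 13 reads in shKDM4D cells). *Usp18*, the protease that removes ISG15 from proteins, was at 0.630, 17.0, 1.11 and 66.7 (-4.55, interval -5.26 to -4.29). The OAS enzymes make the activator of RNase L, and *Oasl2*, an OAS-like gene, was at 0.639 in shKDM4D and 17.0 in shNFIB cells (-4.54). *Gbp3*, an interferon-induced GTPase gene, was at 5.89 and 72.7 (-3.60), and *Rtp4* at 2.21 and 40.05 (-4.12). *Ifit3* was at 45.7 and 489 (-3.42) and its near-identical neighbour *Ifit3b* at 17.5 and 128 (-2.87). Reads that fit both copies can be split between them in counting, so their separate levels are uncertain, as is the level of *Ifi27l2a*, a short gene with close relatives in the same cluster (5.50 against 225, -5.33).

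The factors that carry the interferon signal were also higher in shNFIB cells. *Stat2* had an RPKM of 5.27 in shKDM4D and 23.3 in shNFIB cells (-2.13, interval -2.27 to -2.02), with *Irf9* at 8.16 and 26.7 (-1.70) and *Irf7*, which amplifies the response, at 1.21 and 13.3 (-3.35). The RNA sensor genes *Ddx58*, which encodes RIG-I, and *Ifih1*, which encodes MDA5, were at 12.7 and 28.5 (-1.16) and at 0.215 and 1.18 (-2.02). The 2 members that passed the limit without a 2-fold difference were *Irf1* (8.89 and 11.3, -0.34) and *Ifi27* (54.2 and 46.1, 0.23). Of the 3 listed members under the limit, *Oas3* had 0 reads in shKDM4D and 20 in shNFIB cells, and *Oasl1* and *Rsad2* had none in either. The receptor genes *Ifnar1* and *Ifnar2*, which are not on the list and were looked at after the values were seen, were at 18.995 and 17.9 (0.09) and at 46.9 and 39.1 (0.26).

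Promoters of 4 listed effectors are shown because they carry the letters of the interferon-stimulated response element. They are the members with the highest RPKM in shNFIB cells among those with a match, apart from *Ifit3b*, which has 2 matches and is not printed. The element was searched as GAAANNGAAA on both strands (N stands for any base). The 250 bases before the RefSeq start of each gene (GRCm38.p6) are written 5′ to 3′ on the strand of the gene, with matches in capitals, and overlapping matches run together. They lie at chr19:34640639-34640888 (plus strand) for *Ifit1*, chr19:34583279-34583528 (plus strand) for *Ifit3*, chr4:156200819-156201068 (minus strand) for *Isg15* and chr8:71537473-71537722 (minus strand) for *Bst2*.
Ifit1: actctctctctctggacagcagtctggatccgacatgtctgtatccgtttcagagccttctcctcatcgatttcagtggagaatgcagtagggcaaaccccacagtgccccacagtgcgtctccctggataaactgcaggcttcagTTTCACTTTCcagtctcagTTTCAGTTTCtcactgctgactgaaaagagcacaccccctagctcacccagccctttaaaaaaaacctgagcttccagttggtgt
Ifit3: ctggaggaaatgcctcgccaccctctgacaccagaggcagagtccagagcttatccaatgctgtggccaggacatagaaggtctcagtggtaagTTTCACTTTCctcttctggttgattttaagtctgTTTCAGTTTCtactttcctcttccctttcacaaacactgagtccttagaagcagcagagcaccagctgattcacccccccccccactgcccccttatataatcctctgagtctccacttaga
Isg15: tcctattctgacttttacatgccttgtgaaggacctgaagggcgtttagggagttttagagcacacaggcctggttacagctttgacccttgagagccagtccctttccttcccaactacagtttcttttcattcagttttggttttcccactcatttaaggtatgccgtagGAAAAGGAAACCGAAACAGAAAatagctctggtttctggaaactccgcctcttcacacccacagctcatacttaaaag
Bst2: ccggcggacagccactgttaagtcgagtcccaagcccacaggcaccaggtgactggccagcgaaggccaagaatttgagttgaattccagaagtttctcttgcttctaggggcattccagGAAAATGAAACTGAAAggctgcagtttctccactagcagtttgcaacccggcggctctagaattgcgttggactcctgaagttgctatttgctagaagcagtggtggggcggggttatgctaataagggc
Of these, *Ifit1*, *Ifit3* and *Bst2* have 2 matches each and *Isg15* has 3 overlapping ones, and the match nearest to the start ends 75 bases before it in *Ifit1*, 112 in *Ifit3*, 56 in *Isg15* and 114 in *Bst2*. In a window from 250 bases before to 50 bases after the start, the element was present in 14 of the 21 interferon-stimulated members with a promoter in the RefSeq table (66.7%) and in 322 of all 8495 members with one (3.79%). Among the genes more than 2-fold higher in shNFIB cells it was present in 56 of 352 (15.9%), and in 40 of 321 (12.5%) once the interferon and MHC lists were left out. These lists are not complete, as *Ifi27l2a* is on neither, so the 321 may still include interferon-inducible genes. Among the genes higher in shKDM4D cells the element was present in 11 of 271 (4.06%). The promoters of all 27025 genes in the table held it in 3.99%. A match describes letters in a window and is not evidence of binding.

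**Figure D2:**
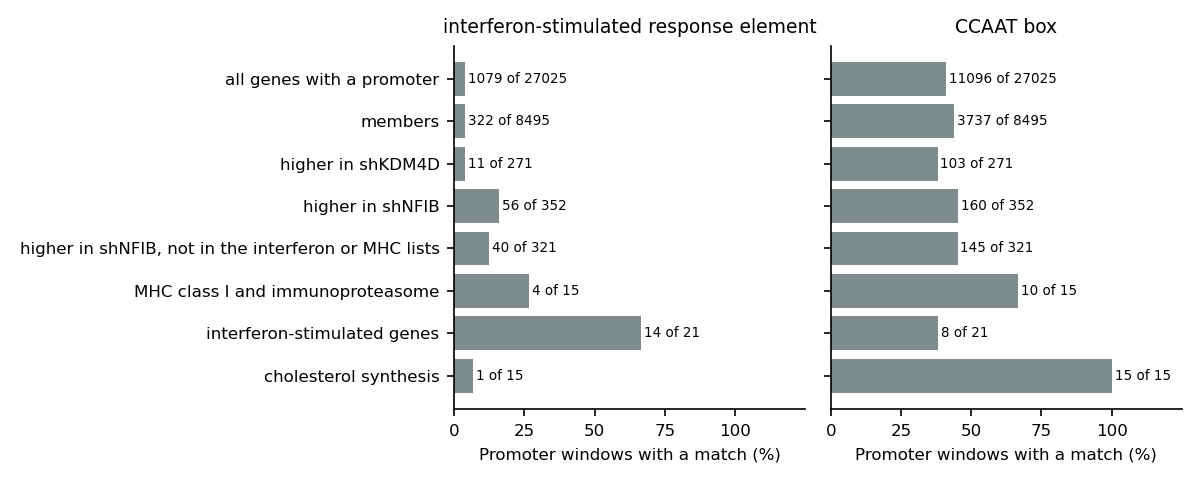
Bars give the share of promoter windows (250 bases before to 50 after the start, in percent) with at least 1 match to the interferon-stimulated response element (left) and to the CCAAT box (right), with the counts beside each bar. The left panel is highest for the interferon-stimulated genes (66.7%) and the right panel for the cholesterol genes (100%), while the genes higher in shKDM4D cells stay at 4.06% and 38.0%.

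Genes of MHC class I antigen presentation were also higher in shNFIB cells. Of 18 on the list, 17 passed the limit, 12 were more than 2-fold higher in shNFIB and none in shKDM4D cells. The median log2 ratio was -1.31. A gene such as *Psmb8* passed through shNFIB cells alone, so it could count only on that side. *B2m*, the light chain shared by all class I molecules (chr2:122147686-122153083), had an RPKM of 1283 in shKDM4D and 2783 in shNFIB cells, and the shControl and shMLL1 levels were 1291 and 4475. Its ratio was -1.12 (95% interval -1.14 to -1.09). The heavy chain genes *H2-K1* and *H2-D1* were at 31.6 and 128 (-2.02) and at 21.3 and 75.8 (-1.83), although class I genes are similar enough that their reads may be shared among copies. *H2-Q4* was at 8.66 in shKDM4D and 57.8 in shNFIB cells (-2.72) with the same reservation. The peptide transporter gene *Tap1* was at 1.87 and 7.49 (-1.95). Immunoproteasome subunit genes followed the same direction, with *Psmb8* at 0.135 and 2.65 (-3.55) and *Psmb10* at 4.75 and 12.4 (-1.36), as did the proteasome activator *Psme2* at 29.6 and 69.8 (-1.23). The 5 members that passed without reaching 2-fold were *Psme1*, *Tap2*, *Erap1*, *Tapbp* and *H2-M3*, between -0.79 and -0.08.

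Chemokine and cytokine genes were divided. Of 25 listed, 15 passed, 9 were more than 2-fold higher in shNFIB cells and 2 in shKDM4D cells (median -1.34). Genes such as *Ccl5* and *Ccl8* passed the limit through shNFIB cells alone, so the count and the median depend in part on the filter. *Ccl2*, which attracts monocytes (chr11:82035571-82037453), had an RPKM of 70.9 in shKDM4D and 249 in shNFIB cells, while shControl and shMLL1 cells were at 75.6 and 99.4 (-1.81, interval -1.89 to -1.73). The neutrophil chemokine *Cxcl1* was at 47.2 in shKDM4D and 140 in shNFIB cells, with 43.8 in shControl and 29.6 in shMLL1 cells (-1.57). For these 2 genes shNFIB cells were the highest of the 4 lines, unlike *Ifit1* and *Isg15*. *Ccl7* (42.9 and 109, -1.34), *Ccl9* (13.6 and 35.0, -1.36), *Ccl5* (0.675 and 5.39, -2.83) and *Ccl8* (1 read and 46 reads, interval -11.31 to -3.42) were also higher in shNFIB cells. In the other direction, *Il1rn*, the interleukin 1 receptor antagonist, was at 724 in shKDM4D and 210 in shNFIB cells, against 602 in shControl and 237 in shMLL1 cells (1.79, interval 1.76 to 1.81). *Cxcl12*, a homing signal of stromal cells, was at 523 and 254 (1.04). The blood and immune cell markers were at or near 0 in both libraries, and the highest of them was *Cd68* with 0.846 in shKDM4D and 0.502 in shNFIB cells.

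Cholesterol genes were likewise higher in shNFIB cells. All 22 members that passed the limit, of 24 listed, had a negative ratio, 11 of them by more than 2-fold, and the median was -0.94. *Sqle*, the squalene epoxidase (chr15:59315077-59331192), had an RPKM of 2.82 in shKDM4D and 8.33 in shNFIB cells, and shControl and shMLL1 cells were at 2.59 and 4.91. Its log2 ratio was -1.53 (95% interval -1.75 to -1.38). *Fdps*, which makes farnesyl diphosphate, was at 2.10 and 6.51 (-1.59, interval -1.89 to -1.38), with 5.66 in shControl and 5.35 in shMLL1 cells. *Cyp51*, the lanosterol demethylase, was at 7.06 and 21.3 (-1.58), with 14.2 and 12.1 in shControl and shMLL1 cells. For these 3 genes shNFIB cells had the highest level of the 4 lines. Of the later enzymes, *Msmo1* (1.96 and 5.53, -1.45) and *Sc5d* (3.10 and 7.48, -1.25) act on the methyl groups and the ring of the sterol. The early enzyme *Hmgcs1* (16.04 and 24.1, -0.58, interval -0.69 to -0.49) and the regulator *Srebf2* (9.59 and 12.7, -0.41) differed less. One of the 2 members under the limit was *Lss* (0.652 and 0.860).

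Promoters of 3 cholesterol genes are shown because the CCAAT box was present in the window of all 15 cholesterol members with a promoter in the table, compared with 44.0% of all members. Capitals mark CCAAT on either strand and, in *Hmgcs1*, also the sterol regulatory element, searched as TCACNCCAC. The windows lie at chr5:4104698-4104947 (minus strand) for *Cyp51*, chr13:8885356-8885605 (plus strand) for *Idi1* and chr13:119690101-119690350 (plus strand) for *Hmgcs1*, in GRCm38.p6, each read on the strand of the gene.
Cyp51: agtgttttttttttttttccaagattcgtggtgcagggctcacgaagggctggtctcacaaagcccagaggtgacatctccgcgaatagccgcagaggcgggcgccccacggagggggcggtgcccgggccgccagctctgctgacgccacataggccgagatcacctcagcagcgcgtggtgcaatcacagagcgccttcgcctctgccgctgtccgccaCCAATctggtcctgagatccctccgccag
Idi1: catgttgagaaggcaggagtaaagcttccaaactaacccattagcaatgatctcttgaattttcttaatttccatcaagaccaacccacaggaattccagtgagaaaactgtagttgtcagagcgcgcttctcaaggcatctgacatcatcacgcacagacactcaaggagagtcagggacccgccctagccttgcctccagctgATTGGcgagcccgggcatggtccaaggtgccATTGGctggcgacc
Hmgcs1: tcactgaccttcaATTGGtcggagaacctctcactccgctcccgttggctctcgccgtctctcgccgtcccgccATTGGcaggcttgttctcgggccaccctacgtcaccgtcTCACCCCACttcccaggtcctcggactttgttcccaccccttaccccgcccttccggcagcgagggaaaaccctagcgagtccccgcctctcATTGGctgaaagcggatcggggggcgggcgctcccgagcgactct
The nearest CCAAT box ends 24 bases before the start in *Cyp51* and 9 bases before it in *Idi1*, and *Hmgcs1* has 3 CCAAT boxes beside the sterol element. The sterol element was found in 1 of the 15 cholesterol promoters and in 1.27% of all members. For the other motifs searched, the shares are given as genes higher in shKDM4D, genes higher in shNFIB and all members. The gamma-activated site TTCNNNGAA was present in 7.38%, 11.1% and 8.33%, the AP-1 site TGACTCA in 6.64%, 9.09% and 4.34%, and the cAMP response element TGACGTCA in 1.48%, 2.27% and 3.72%. The TTGGCA letters of an NFI site were present in 13.7% of the genes higher in shKDM4D and in 17.3% of those higher in shNFIB cells. The shares were 12.9% for all members and 16.1% for all genes with a promoter in the table.

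Several adipocyte markers were higher in shKDM4D than in shNFIB cells. Of 10 adipocyte markers 6 passed the limit, 4 were more than 2-fold higher in shKDM4D cells and none in shNFIB cells, with a median of 4.05. Those 4 (*Adipoq*, *Fabp4*, *Plin1* and *Cidec*) passed the limit through shKDM4D cells alone, so the count and the median depend on the filter. *Pparg* and *Cebpa*, over the limit in both libraries, had ratios of 0.13 and 0.55. *Adipoq*, the hormone adiponectin (chr16:23146536-23158028), had an RPKM of 9.01 in shKDM4D cells and 0.229 in shNFIB cells, against 258 in shControl and 0.570 in shMLL1 cells. Its ratio was 4.79, with a read interval of 4.06 to 6.94 from 269 and 5 reads. *Fabp4*, the fatty acid carrier aP2 (chr3:10204088-10208576), was at 9.34 in shKDM4D and 0.380 in shNFIB cells, against 277 and 1.75 in shControl and shMLL1 cells (4.30, interval 4.07 to 5.23). *Plin1* and *Cidec*, proteins of the lipid droplet surface, were at 1.86 and 0.0407 (187 and 3 reads, interval 3.94 to 7.80) and at 3.76 and 0.0680 (151 and 2 reads, interval 3.91 to 8.85). In bulk RNA, fewer fat cells and less of these transcripts per cell cannot be told apart. Both lines were well under the shControl level for these 4 genes, and shKDM4D cells were the second highest of the 4 lines. *Cd36*, *Lpl* and *Slc2a4* were under an RPKM of 1 in both libraries, with 0.998 for *Lpl* in shKDM4D and 0.151 in shNFIB cells, and *Lep* had no reads.

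The master regulators stayed within 2-fold. *Pparg* (chr6:115360951-115490399) had an RPKM of 8.21 in shKDM4D and 7.48 in shNFIB cells, against 21.7 in shControl and 7.22 in shMLL1 cells. Its ratio of 0.13 had an interval of -0.06 to 0.33, so a difference was not detectable at this depth. *Cebpa* was at 5.42 and 3.66 (0.55, interval 0.28 to 0.85) and *Cebpb* at 65.9 and 39.5 (0.74, interval 0.63 to 0.85). Of the 11 adipogenic transcription factors that passed the limit, 1 exceeded 2-fold, *Ebf1*, at 20.6 in shKDM4D and 9.28 in shNFIB cells (1.14). Beside 3.51% of all members higher in shKDM4D cells, 1 of 11 does not stand out. Among the factors that restrain adipogenesis, 2 of 11 were higher in shKDM4D cells, *Zfp521* (13.3 and 4.94, 1.41) and *Dlk1*, the preadipocyte membrane protein Pref-1, with 652 reads in shKDM4D and 1 read in shNFIB cells. *Dlk1* passed the limit through shKDM4D cells alone. Its level in shKDM4D cells, an RPKM of 5.33, was close to the 5.09 of shControl cells, and no read fell on it in shMLL1 cells.

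Genes that break down, bind or make fatty acids varied one by one. In the list of lipases, *Ces1d* (12.2 and 0.213, 5.30) and *Ces1f* (9.21 and 0.0384, from 654 and 2 reads, interval 6.05 to 10.95) were higher in shKDM4D cells than in any other line. The levels of *Ces1d* and *Ces1f* were 1.99 and 0.929 in shControl and 3.11 and 0.176 in shMLL1 cells. Of the 2 libraries compared, both genes passed the limit through shKDM4D cells alone. The carboxylesterases of this cluster resemble each other, so reads may be shared among them. *Lipe*, the hormone-sensitive lipase, was at 2.59 and 1.10 (1.16). *Plin4* was at 43.2 and 16.7 (1.36), *Acsl1*, which activates fatty acids, at 3.95 and 1.72 (1.15), and *Elovl6*, a fatty acid elongase, at 15.3 and 4.78 (1.66). In the other direction stood *Fabp5*, at 3.63 in shKDM4D and 9.38 in shNFIB cells (-1.34), *Acsl3*, at 8.77 and 18.7 (-1.08), and *Fads2*, at 13.5 and 27.6 (-1.03). The list of fatty acid and triglyceride synthesis as a whole had 1 member of 16 higher on each side (median -0.23). That is near the shares over all members, 3.51% and 4.78%. In this list *Fasn* was at -0.34 and *Scd1* at 0.99. None of the 19 fatty acid oxidation genes that passed, which lay between -0.43 and 0.81, and none of the 27 respiratory chain genes (-0.71 to 0.51) exceeded 2-fold. Of the adipokines, *Rarres2*, which encodes chemerin, was at 7.72 and 2.92 (1.37).

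**Figure D3:**
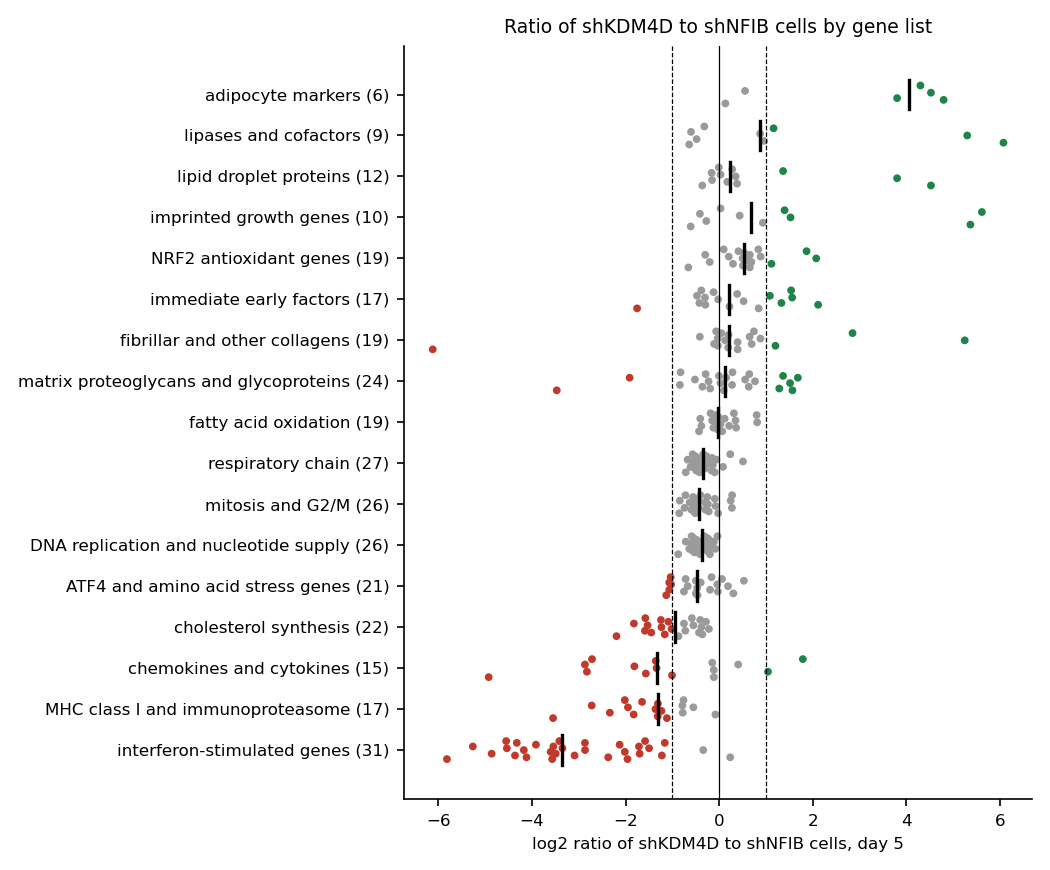
Each point is 1 gene, with the log2 ratio of shKDM4D to shNFIB cells at day 5 on the x axis and the gene lists on the y axis, where the number of members with an RPKM over 1 stands in parentheses and the vertical bar is their median. Green points are more than 2-fold higher in shKDM4D cells, red points more than 2-fold higher in shNFIB cells, and vertical spread within a row carries no value. The medians run from 4.05 for the adipocyte markers to -3.35 for the interferon-stimulated genes. In both of these lists some members passed the RPKM limit through the higher library alone.

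Apart from the lists, the protein coding genes with the largest difference in favour of shKDM4D cells included secreted, cytoskeletal and nuclear proteins. *Igfbp3*, which binds and transports IGF (chr11:7206086-7213923), had an RPKM of 17.6 in shKDM4D cells and 0.0202 in shNFIB cells, from 1189 reads and 1 read, against 3.77 in shControl and 6.02 in shMLL1 cells. The log2 ratio of 7.20 depends on the pseudocount, and the read interval ran from 7.29 to 15.07. *Iqgap2*, a scaffold protein of the cytoskeleton (chr13:95627177-95891922), was at 32.9 and 0.930, with 8.49 and 3.64 in shControl and shMLL1 cells (5.00, interval 4.84 to 5.47). *Epas1*, the hypoxia-inducible factor HIF-2α (chr17:86753700-86833410), was at 50.6 and 3.51, with 26.1 and 3.31 in shControl and shMLL1 cells (3.81, interval 3.68 to 4.02). For *Igfbp3* and *Iqgap2* shKDM4D cells were the highest and shNFIB cells the lowest of the 4 lines, whereas *Epas1* was at about the same low level in shMLL1 and shNFIB cells. *Serping1*, the C1 inhibitor of complement, was at 11.3 and 0.217 (5.17), *Col23a1*, a membrane-bound collagen, at 33.6 and 1.85 (4.11), and *1500015O10Rik* at 75.6 and 3.71 (4.31). *Slc5a3*, the myo-inositol transporter, was at 75.1 and 8.66 (3.10), *Tnfrsf21*, death receptor 6, at 19.3 and 1.71 (3.43), and *Sned1* at 210 and 28.5 (2.87). *Sod3*, the extracellular superoxide dismutase, was at 106 in shKDM4D and 14.6 in shNFIB cells (2.85), with 81.5 and 52.2 in shControl and shMLL1 cells. *Cyp2f2* (12.1 and 0.935, 3.56), *Gpm6b* (30.9 and 4.10, 2.88) and *Aff3* (15.7 and 2.03, 2.90) complete the 15 named in this direction, together with *Ces1d* and *Nfib*.

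Among the 15 protein coding genes with the largest difference in favour of shNFIB cells, most were interferon-inducible, while *Col8a1* and *Abcb1b* were of other kinds. *Col8a1*, a short-chain collagen of vessel walls and basement membranes (chr16:57624258-57754737), had an RPKM of 0.124 in shKDM4D and 15.5 in shNFIB cells, with 0.502 in shControl and 2.93 in shMLL1 cells. Its log2 ratio was -6.12 and its read interval -7.66 to -6.35. *Abcb1b*, a drug efflux pump (chr5:8798147-8866315), was at 1.57 and 30.2, with 2.76 and 2.15 in shControl and shMLL1 cells (-4.18, interval -4.45 to -4.09). Here shNFIB cells stood alone, since the other 3 lines lay between 1.57 and 2.76. *Ms4a4d* had 0 reads in shKDM4D cells and 329 in shNFIB cells (RPKM 13.7), at least 150-fold higher when 3 reads are set as the floor. *Tgtp2*, a GTPase gene with a near-identical copy next to it, was at 0.756 and 25.6 (-4.91), and *Phf11b*, from a cluster of similar genes, at 1.602 and 22.7 (-3.74). As for *Ifit1*, the level of both was highest in shMLL1 cells, at 89.0 and 75.6.

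Matrix genes differed in both directions. Of the matrix proteoglycans and glycoproteins, 24 of 25 passed, 5 were higher in shKDM4D and 2 in shNFIB cells (median 0.12). Over all members the shares were 3.51% and 4.78%. *Dcn*, the proteoglycan decorin that coats collagen fibrils, had an RPKM of 3.03 in shKDM4D and 34.5 in shNFIB cells, against 31.8 in shControl and 92.2 in shMLL1 cells (-3.47, interval -3.67 to -3.36). For this gene shKDM4D cells were the line that stood apart, 11.1-fold under shNFIB cells. The related *Lum* was at 1.25 and 4.98 (-1.91). *Fn1*, the cell adhesion glycoprotein fibronectin, was at 470 in shKDM4D and 183 in shNFIB cells, with 385 and 328 in shControl and shMLL1 cells (1.36, interval 1.35 to 1.38), and here shNFIB cells were the lowest. *Vcan*, the large proteoglycan versican, was at 92.6 and 31.2 (1.56). The elastic fibre gene *Eln* was at 2.74 and 0.787 (1.68). Among the collagens, the major fibrillar chains *Col1a1* (-0.03), *Col3a1* (-0.07) and *Col1a2* (0.39) stayed within 2-fold. The partner chains of type VIII collagen went opposite ways, since *Col8a2* was at 9.03 in shKDM4D and 0.141 in shNFIB cells (5.25, interval 5.12 to 7.07), and *Col8a1*, as given above, was at 0.124 and 15.5. *Col18a1*, the source of endostatin, was at 9.30 and 1.20 (2.85). The gelatinase *Mmp2* was at 227 and 87.6 (1.38), while the proteases *Mmp3* (5.01 and 13.4, -1.40), *Adamts5* (29.7 and 61.3, -1.04) and *Plau* (5.71 and 12.9, -1.16) were higher in shNFIB cells.

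Signalling genes likewise split by member rather than by pathway. Of the Wnt list, 14 of 33 passed, 4 were higher in shKDM4D and 2 in shNFIB cells. The shares over all members were 3.51% and 4.78%. *Rspo3*, an enhancer of Wnt signals, was at 124 in shKDM4D and 42.0 in shNFIB cells (1.56), with 39.4 and 37.7 in shControl and shMLL1 cells, and the co-receptor *Lrp5* at 24.7 and 8.90 (1.46). *Sfrp1*, a secreted Wnt antagonist, was at 2.70 and 17.1 (-2.62, interval -2.87 to -2.47), with 5.12 and 1.46 in shControl and shMLL1 cells. In the TGF-β and BMP list, 3 of 23 were higher in shKDM4D and 4 in shNFIB cells, beside the same shares. The ligand genes *Bmp4* (27.1 and 72.7, -1.42) and *Inhba* (2.47 and 8.79, -1.79) were higher in shNFIB cells, and the TGF-β-induced matrix gene *Tgfbi* (12.9 and 3.28, 1.94) in shKDM4D cells. In the insulin and IGF list, *Irs1* was at 31.3 and 14.03 (1.15) and *Pik3r1* at 58.7 and 24.8 (1.24), and *Igf1*, the growth factor itself, was at 12.5 and 30.9 (-1.30). The imprinted growth genes had 4 of 10 higher in shKDM4D and none in shNFIB cells, beside 3.51% and 4.78% of all members. Of these, *Dlk1* and *H19* passed the limit through shKDM4D cells alone, so they could count only on that side. *H19*, a long non-coding RNA of the *Igf2* locus (chromosome 7), was at 8.26 in shKDM4D and 0.103 in shNFIB cells, from 439 and 4 reads, with 12.9 and 2.02 in shControl and shMLL1 cells (interval 4.96 to 8.21), and *Igf2* itself had a log2 ratio of 0.93.

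Early response, antioxidant and contractile genes gave smaller groups. Of 17 immediate early genes, 5 were higher in shKDM4D and 1 in shNFIB cells. This count and those that follow stand beside shares over all members of 3.51% and 4.78%. Some members, such as *Egr3* and *Atf3*, passed the limit through 1 library alone. *Egr1* was at 30.4 and 14.3 (1.08), *Egr3* at 4.55 and 0.974 (2.11), *Nr4a1* at 7.19 and 2.37 (1.56) and *Fos* at 3.23 and 1.05 (1.54), while the stress factor *Atf3* was at 0.451 and 1.76 (-1.75). Of 19 genes of the NRF2 antioxidant list, 3 were higher in shKDM4D and none in shNFIB cells (median 0.54). The quinone reductase *Nqo1* was at 90.0 and 24.6 (1.87, interval 1.74 to 2.00), with 49.7 and 45.6 in shControl and shMLL1 cells, and the glutathione transferase *Gstm1* at 235 and 55.8 (2.07). In the smooth muscle and cytoskeleton list, 4 of 13 were higher in shNFIB and 1 in shKDM4D cells, among them the myosin light chain *Myl9* (6.53 and 25.2, -1.93) and the YAP target *Ctgf* (4.95 and 20.9, -2.06). *Tnfrsf11b*, the decoy receptor osteoprotegerin, was at 19.3 in shKDM4D and 75.02 in shNFIB cells (-1.95), above 17.8 and 25.4 in shControl and shMLL1 cells. Acute-phase and complement genes were even, with 4 of 15 higher on each side, such as *Hp*, haptoglobin (29.2 and 9.43, 1.62), and the complement factor *Cfb* (1.10 and 7.999, -2.76). Of 15 CDK inhibitor and p53 target genes, *Mdm2* (16.2 and 32.7, -1.01) and *Aen* (3.92 and 8.97, -1.18) were higher in shNFIB cells.

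DNA replication, mitosis and ribosomal protein genes stayed within 2-fold, although most had a negative ratio. All 26 DNA replication genes that passed had a negative ratio between -0.88 and -0.04 (median -0.37), as did 23 of 26 mitosis genes (median -0.44) and 24 of 28 ribosomal protein genes (median -0.32), beside a median of -0.09 for all members. The 20 aminoacyl-tRNA synthetase genes (median -0.24) and the 20 ER chaperone and unfolded protein response genes (median -0.27) also stayed within 2-fold. *Gapdh* was at 236 and 235 (0.01), and 15 genes encoded by mitochondrial DNA lay between -0.14 and 0.18. Of the replication-dependent histone genes 12 of 16 passed, with a median of -0.35, and 2 were more than 2-fold higher in shNFIB cells. These were *Hist1h4a*, with no reads in shKDM4D and 9 in shNFIB cells, and *Hist1h2ab*, with 4 and 18 reads. Histone genes have near-identical copies, so their reads may be shared.

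To see which differences were present before induction, the same ratio was taken between the 2 lines at day 0 over the same 10940 genes. There, 355 genes (3.24%) were more than 2-fold higher in shKDM4D cells and 256 (2.34%) in shNFIB cells. Of the genes higher in shKDM4D cells at day 5, 139 were already higher at day 0, which is 36.2% of the day 5 and 39.2% of the day 0 group. Of those higher in shNFIB cells, 129 were higher at both days, 24.7% of the day 5 and 50.4% of the day 0 group. Across genes, which are not independent replicates and which come from 4 libraries of the same 2 lines, the ratios at the 2 days had a Pearson correlation of 0.49 and a Spearman correlation of 0.44 (n = 10940). The genes higher in shKDM4D cells at day 5 had a median log2 ratio of 1.48 at day 5 and 0.66 at day 0, and those higher in shNFIB cells had -1.50 and -0.47. The day 0 values depend on the scaling. *Gapdh*, itself a glycolysis gene, had an RPKM of 326 in shKDM4D and 159 in shNFIB cells at day 0, a log2 ratio of 1.04. Dividing each library by its *Gapdh* value, an alternative added after the data were seen, moved the median of all genes at day 0 from -0.03 to -1.03, and left 84 genes more than 2-fold higher in shKDM4D cells and 5800 in shNFIB cells.

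The medians of the interferon and cholesterol lists lay near equal expression at day 0. The interferon-stimulated genes had a median of -0.05 at day 0, with 1 gene higher in shNFIB cells (*Zbp1*, -1.09) and none in shKDM4D cells. Few reads fell on several of them, so this median does not show equal expression for each. *Isg15* had 6 reads in shKDM4D and 3 in shNFIB cells, *Usp18* 10 and 3, and *Oasl2* 10 and 9. Outside the list, *Tgtp2* (-3.41, 6 and 114 reads) and *Phf11b* (-2.17, 4 and 25 reads) were already higher in shNFIB cells at day 0. *Ifit1* had an RPKM of 2.89 in shKDM4D and 3.61 in shNFIB cells before induction, and *Irf9* was at 3.74 and 3.37 (0.15). The cholesterol genes had a median of -0.04 at day 0, and *Sqle* was at 14.6 and 13.9 (0.07). Its RPKM in shKDM4D cells thus went from 14.6 to 2.82 between the days and in shNFIB cells from 13.9 to 8.33. After division by *Gapdh* the medians were -0.87 for the interferon-stimulated and -1.04 for the cholesterol genes, beside -1.03 for all genes. The adipocyte markers had a day 0 median of 0.12, which does not show equal expression, since some of them had almost no reads then. *Adipoq*, *Plin1* and *Cidec* had at most 2 reads in either library, and *Fabp4* had 17 in shKDM4D and 3 in shNFIB cells. *Pparg* (RPKM 5.598 in shKDM4D and 6.02 in shNFIB cells) and *Cebpa* (1.59 and 1.22) were already expressed before induction. Unlike the median differences of the interferon and cholesterol lists, several of the matrix and signalling differences were there at both days. *Sod3* had ratios of 3.26 at day 0 and 2.85 at day 5, *Col8a2* of 4.30 and 5.25, *Fn1* of 1.55 and 1.36, *Il1rn* of 2.91 and 1.79 and *Sfrp1* of -3.21 and -2.62. With division by *Gapdh* these 5 genes kept their direction at day 0, and *Fn1* fell within 2-fold (0.51).

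**Figure D4:**
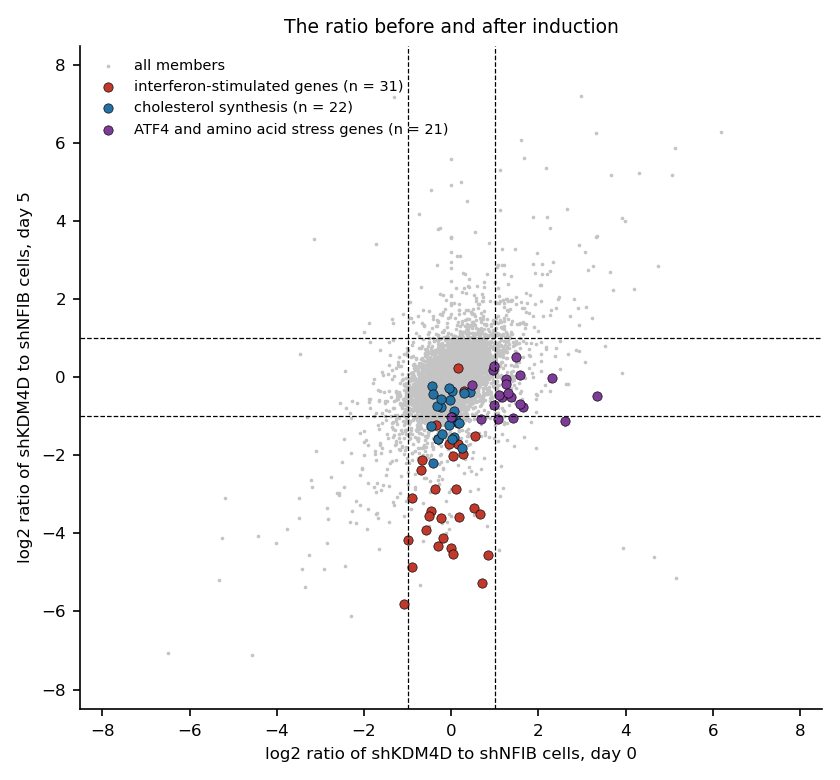
Each point is 1 gene, with the log2 ratio of shKDM4D to shNFIB cells at day 0 on the x axis and at day 5 on the y axis, and dashed lines mark 2-fold differences. The interferon-stimulated genes (median -0.05 at day 0 and -3.35 at day 5) and the cholesterol genes (-0.04 and -0.94) spread downwards near 0 on the x axis, and the ATF4 genes lie to the right (median 1.26 at day 0 and -0.47 at day 5).

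Genes of the ATF4 pathway, which answers amino acid shortage, differed between the lines mainly at day 0, and 3 of them were past 2-fold in opposite directions at the 2 days. At day 0, 15 of the 21 members that passed were more than 2-fold higher in shKDM4D cells and none in shNFIB cells (median 1.26). At day 5 none was higher in shKDM4D cells and 5 were higher in shNFIB cells (median -0.47), although this count fell to 1 after median-of-ratios scaling of the 2 libraries. *Chac1*, which degrades glutathione, had an RPKM of 21.3 in shKDM4D and 3.44 in shNFIB cells at day 0 (2.60, interval 2.33 to 2.94), and 5.74 and 12.7 at day 5 (-1.13, interval -1.40 to -0.89). The amino acid transporter *Slc7a5* went from 45.1 and 16.9 (1.41) to 15.3 and 31.4 (-1.04). *Psat1*, an enzyme of serine synthesis, went from 71.6 and 33.8 (1.08) to 14.5 and 30.6 (-1.07), while *Atf4* itself had a log2 ratio of 0.06 at day 5. Of the glycolysis and hypoxia genes, 12 of 23 members were higher in shKDM4D cells at day 0 (median 1.04) and none at day 5 (median 0.03), when *Ankrd37* was higher in shNFIB cells (3.43 and 7.01, -1.01). In all, 24 of the 523 genes higher in shNFIB cells at day 5 had been more than 2-fold higher in shKDM4D cells at day 0. Of all members, 3.24% were on that side at day 0. The other way had gone 8 of the 384 genes higher in shKDM4D cells at day 5, beside 2.34% of all members at day 0. With median-of-ratios scaling, 17 ATF4 genes (median 1.29) and 12 glycolysis and hypoxia genes (median 1.07) were more than 2-fold higher in shKDM4D cells at day 0. Division by *Gapdh* left 3 ATF4 genes (median 0.23, beside -1.03 for all genes), and made the numbers of opposite genes 5 and 46. It left 1 glycolysis and hypoxia gene (median 0.00). *Gapdh* is on that list and its own ratio of 1.04 was the list median, so that 0.00 was fixed in advance. Of *Chac1*, *Slc7a5* and *Psat1*, *Chac1* alone was still past 2-fold on opposite sides after division by *Gapdh* (1.56 at day 0). Outside the ATF4 list the surface antigen genes *Ly6a*, which encodes Sca-1 (191 and 90.6 at day 0, 109 and 340 at day 5), and *Ly6c1* (11.5 and 4.70, then 16.8 and 37.9) belonged to the first kind.

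**Figure D5:**
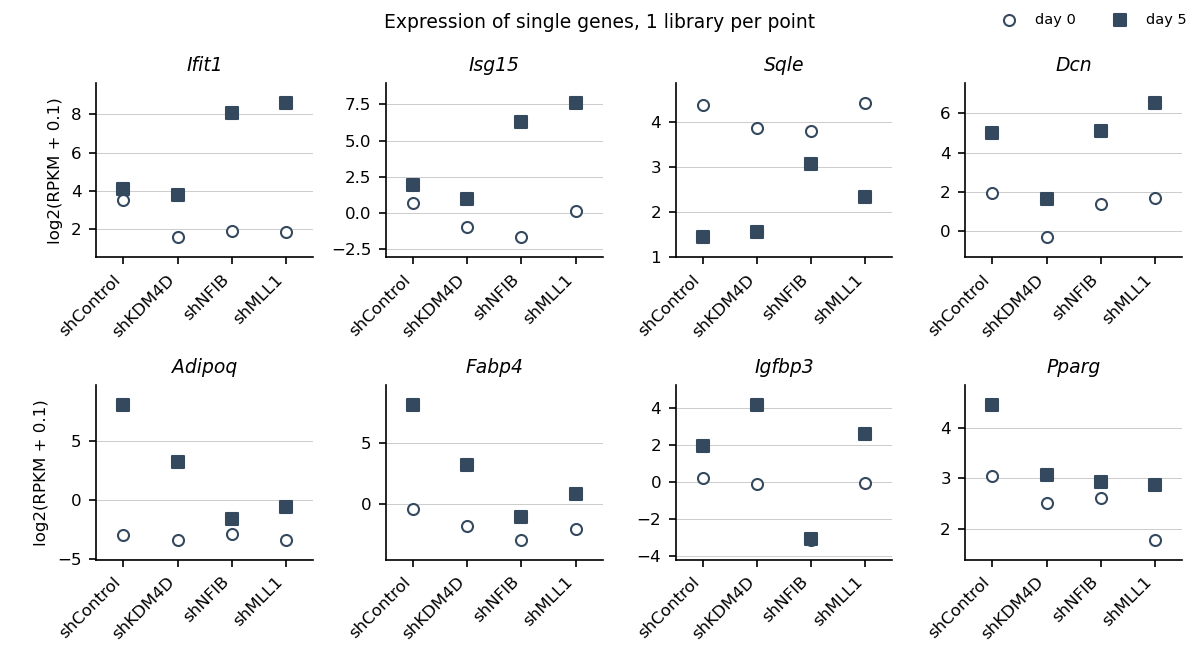
Points give log2(RPKM + 0.1) on the y axis for 8 genes in the 4 lines, with open circles for day 0 and filled squares for day 5, and 1 library per point. At day 5 *Ifit1* and *Isg15* are high in shNFIB and shMLL1 cells, *Sqle* is highest in shNFIB cells, *Dcn* is lowest in shKDM4D cells, *Adipoq* and *Fabp4* are highest in shControl and next in shKDM4D cells, *Igfbp3* is lowest in shNFIB cells, and *Pparg* lies between 7.22 and 8.21 in RPKM in the 3 knockdown lines.

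At the RPKM limit itself, *Rhbdl3* (0.616 in shKDM4D and 1.00 in shNFIB cells) and *Mok* (0.326 and 1.00) were just inside, and *Stk36* (0.999 and 0.588) and *Tvp23bos* (0.869 and 0.999) were just outside. The libraries were made with a stranded kit, but whether strand was used in counting is not given in the sources used here, so reads of a gene and of an overlapping gene on the other strand may not be separated.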

How the data were processed

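RNA was sequenced in C3H10T1/2 cells of 4 lines at 2 days, with 1 library per condition. For each library the authors deposited 1 table of RPKM values, made with CLC Genomics Workbench on the GRCm38 genome, in which the read number of a gene is scaled to its exon length and to all mapped reads of the library. Whether strand was used, and how reads with several matches were handled, is not given in the sources used here. The tables were joined on gene symbol, and the log2 ratio of (RPKM + 0.1) was computed in Python 3.11.15 with pandas 2.3.3. Genes with an RPKM over 1 in either library were kept, and a ratio past 2-fold in either direction was counted. Reads were recovered by multiplying the RPKM by the exon length of GENCODE M21 and dividing by the value of 1 read, which was fitted for each library. Depth was derived from the same fitted value. The fit sought the largest share of whole numbers, so this share is no independent check. Of the quotients from 1 to 1000 at least 96.2% differed by no more than 0.02 from a whole number. Exact 95% Clopper-Pearson intervals (scipy 1.17.1) of the read ratio cover counting error only, and their calculation was tested on simulated data. No test between conditions was possible with 1 library each. Promoter windows and sequences were taken from RefSeq (GRCm38.p6), which held 8495 of the 10940 genes.

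The members and gene lists were chosen with earlier results of these data known. Genes named were the targeted genes and *Pparg*, *Cebpa*, *Cebpb* and *Fabp4*, which the study measured. Added to them were the 15 protein coding genes of each direction with the largest ratio after adding 1 to each RPKM (at least 10 in the higher library). Each list gave up to 6 members past 2-fold (RPKM of at least 5 in the higher library, or the 2 most abundant where fewer than 2 qualified). Genes with the opposite difference at day 0 and genes at the RPKM limit were also named. Any other gene was named after its values were seen. Some genes that this rule or the lists include are not reported here. Alternatives were pseudocounts of 1 and 0.01, no RPKM filter or a limit of 5, quantile normalization, protein coding genes alone, scaling by the median of ratios, a fold limit of 4, a counting interval that excludes equal expression, and division by *Gapdh*.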

Additional observations from a re-analysis of the deposited data

Results flagged for a closer look

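Of the genes whose difference pointed one way at day 0 and the other way at day 5, beyond 2-fold at both days (24 and 8 by direction), 6 had an RPKM of at least 5 in the higher library of both days. By direction they were 24 of the 523 genes higher in shNFIB cells at day 5 and 8 of the 384 higher in shKDM4D cells. Of all members, 3.24% and 2.34%, respectively, were past 2-fold on the opposite side at day 0. With 1 library at each point this reversal was not tested. The log2 ratio of shKDM4D to shNFIB cells went down between the days by 3.73 for *Chac1* (-3.73 as day 5 minus day 0), and the same difference was -2.72 for *Ly6a*, -2.45 for *Ly6c1*, -2.45 for *Slc7a5* and -2.15 for *Psat1*. *Slc7a5* and *Psat1* lay close to the limit at day 5, and median-of-ratios scaling brought them within 2-fold there (-0.95 and -0.98). *Rn7s2*, a signal recognition particle RNA with many near-identical copies in the genome, went the other way by 8.48, a size set by the pseudocount, since it had 93 reads in shKDM4D cells and none in shNFIB cells at day 5 and an RPKM of 8.87 and 22.1 at day 0. After division by *Gapdh*, which differed between the lines at day 0, *Chac1* (1.56) and *Rn7s2* (-2.33) were still past 2-fold at day 0, and *Ly6a*, *Ly6c1*, *Slc7a5* and *Psat1* lay between 0.04 and 0.37.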

How the results depend on the processing

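The number of genes past the limit depended on the fold limit, on how low values were treated and, at day 0, on scaling. No gene past 2-fold under the naming rule changed direction at day 5 under the alternatives for single genes. In what follows, each set of 4 counts gives the genes higher in shKDM4D and in shNFIB cells at day 5, then the same at day 0. Adding 1 in place of 0.1 to each RPKM left 241, 304, 153 and 84 genes. Without an RPKM filter there were 878, 1257, 638 and 628. With an RPKM over 5 in either library there were 208, 252, 189 and 90, and with a fold limit of 4 there were 102, 150, 72 and 53. The counts stayed within 1.5 times the reported ones with a pseudocount of 0.01 (406, 570, 426 and 321), with quantile normalization (483, 445, 334 and 205) and median-of-ratios scaling (463, 452, 376 and 239), with protein coding genes alone and with intervals that exclude equal expression. Both scalings changed which side had more genes at day 5, since 42.3% of the calls were higher in shKDM4D cells as reported, 52.0% after quantile normalization and 50.6% after median-of-ratios scaling. Of 115 genes past 2-fold under that rule, 100 kept their side of the limit under the 5 alternatives that apply to single genes, and the 15 others, such as *Fads2*, *Mdm2* and *Slc7a5*, fell within 2-fold under at least 1 of them, the lowest being *Tek* (1.23 as reported, 0.61 with a pseudocount of 1). Dividing by *Gapdh* moved the day 5 ratios by 0.01 and the day 0 ratios by 1.04. It gave 380, 531, 84 and 5800 genes, and this count was added after the data were seen. No paired analysis was possible because each condition has 1 library, and for the same reason no replicate could be left out.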

Other observations

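Some genes had few or no reads in 1 of the 2 lines at both days, and they are named here after their values were seen. *Xist*, the long non-coding RNA that coats the inactive X chromosome (chrX:103460366-103483254), had an RPKM of 0.0456 at day 0 and 0.0155 at day 5 in shKDM4D cells, against 13.0 and 15.4 in shNFIB cells, 20.4 and 29.2 in shControl cells and 20.2 and 30.6 in shMLL1 cells. The axon guidance gene *Slit3* (chr11:35121224-35708507) had no reads in shNFIB cells at either day, and 996 reads in shKDM4D cells at day 5 (RPKM 7.59), at least 243-fold higher with 3 reads as the floor. *AI662270* was likewise listed at 0 in shNFIB cells at both days and had an RPKM of 7.21 and 7.76 in shKDM4D cells, as was *5730409E04Rik*, with 3.42 and 5.78.

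The ratio of the lines also varied by chromosome. Among genes with an RPKM over 5, the median log2 ratio at day 5 was lowest on chromosome 10 (-0.36) and highest on chromosome 15 (0.31), and the same chromosomes were lowest and highest at day 0 (-0.36 and 0.38). Of 20 chromosomes with 186 to 617 such genes, 19 lay on the same side of the overall median at both days, and the chromosome medians of the 2 days had a Pearson correlation of 0.98.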
